A study of Mus musculus with 8 samples.

Results

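The genes of DNA replication and S phase were followed in whole B16F1 melanoma tumours, from the proteins that mark origins to those that supply nucleotides and drive cells into S phase. The set was a list of 49 genes chosen by function, though with earlier results of these data known. Each was read on the brightest probe set that the array annotation gave to that gene alone. All 49 were on the array and all were bright enough to be tested, among 18194 genes with a probe set of their own and 11346 tested. B16F1 is a mouse melanoma cell line, and its cells were injected under the skin of a hind limb of 5 to 7 mice, aged 8 to 12 weeks. Tumours of 268 to 478 mm3 were then assigned to treatment, and whole tumours were taken 5 h later. The 4 groups were tumours of TNFR1,2 -/- mice (KO) given 20 Gy of X-rays to the tumour-bearing limb, untreated tumours of KO mice, tumours of C57BL/6 wild-type mice (WT) given the same dose, and untreated tumours of WT mice. KO mice came from the stock B6;129S-Tnfrsf1a[tm1Imx] Tnfrsf1b[tm1Imx]/J, which lacks both receptors for tumour necrosis factor (TNF), and WT mice were C57BL/6-NCr. The host strain is labelled C57BL/6 in every group. Only the host carried the deletion, since the same tumour line was injected in every group. RNA of a group was combined into 1 pool, and each pool was read on 2 arrays, which are technical duplicates. The series asks which genes go with greater radiosensitivity of the tumour when the host stroma cannot respond to TNF.

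DNA replication starts at origins bound by the origin recognition complex (ORC), on which Cdc6 and Cdt1 load the ring-shaped MCM helicase in a step called licensing. The kinase Cdc7 with its activator Dbf4, and cyclin E with its own kinase, then switch the helicase on together with Cdc45 and the GINS complex. DNA polymerases, the sliding clamp PCNA, the clamp loader RFC and the single-strand binding protein RPA copy the strands, and Fen1 and Lig1 join the short fragments of the lagging strand. Many of these genes are transcribed by E2F factors as cells pass from G1 into S phase, and ionising radiation is known to slow replication through the DNA damage checkpoints.

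Signals are the authors' MAS5 intensities on a linear scale, given per array. Differences are in log2 of the signal plus 16, with the standard error (SE) from limma. Between the 2 arrays of a pool the correlation over probe sets was 0.975 to 0.981, and between arrays of different pools 0.953 to 0.972. Poly-A transcripts added before labelling averaged 10.4 to 39.6 on the KO arrays and 4395 to 22387 on the WT arrays, so a difference between hosts and one between target preparations cannot be told apart here. Within WT the poly-A spike-ins dap, lys, phe and thr read 27784, 9373, 6047 and 11905 irradiated, against 16989, 4923, 2743 and 5688 untreated. The hybridization controls bioB and cre read 457 and 20530 irradiated and 348 and 15624 untreated in WT hosts. In KO hosts these 2 read 345 and 18367 irradiated and 334 and 16366 untreated. Ribosomal 18S RNA read 867 irradiated and 567 untreated in KO hosts, against 405 irradiated and 331 untreated in WT hosts. The part of these controls in the radiation comparisons was not tested. The labelled tissue was borne out by its markers, with all 9 melanocyte genes tested and a summed signal of 203620 (KO irradiated), 199900 (KO untreated), 220080 (WT irradiated) and 191770 (WT untreated).

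Markers of other cell types moved between the pools, as the plot of marker sums by array shows. The neutrophil markers (5 of 6 on the array, 4 tested) summed to 1164 in the KO irradiated pool, 995 in the KO untreated pool, 23652 in the WT irradiated pool and 3816 in the WT untreated pool. The fibroblast and matrix markers (8 of 9 tested) summed to 12462 and 18878 in the KO irradiated and untreated pools and to 8700.1 and 5642 in the WT irradiated and untreated pools. Macrophage markers (8 of 8 tested) summed to 7627, 11431, 12895 and 6286 in the same order of pools, and endothelial markers (7 of 8) to 2668, 3366, 1988 and 1727. Skeletal muscle markers (6 of 8) summed to 702, 1511, 1141 and 3475, keratinocyte markers (5 of 7) to 888, 2949, 615 and 464, and erythroid markers (3 of 4) to 4817, 623, 1926 and 558. Lymphocyte markers (2 of 7) summed to 601, 521, 825 and 541. The counts in brackets are of tested genes, but every sum took in all listed genes on the array, tested or not. The markers below the tested level were Cd3e, Cd3g, Cd4, Cd79a and Nkg7 of the lymphocytes, and Cxcr2, Fap, Tek, Myh4, Tnnt3, Krt14, Krt10 and Hba-a1 of the other lists. In such bulk samples a smaller share of dividing cells and less RNA per cell cannot be told apart, and the part of the cell mixture in the results below was not tested.

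**Figure D1:**
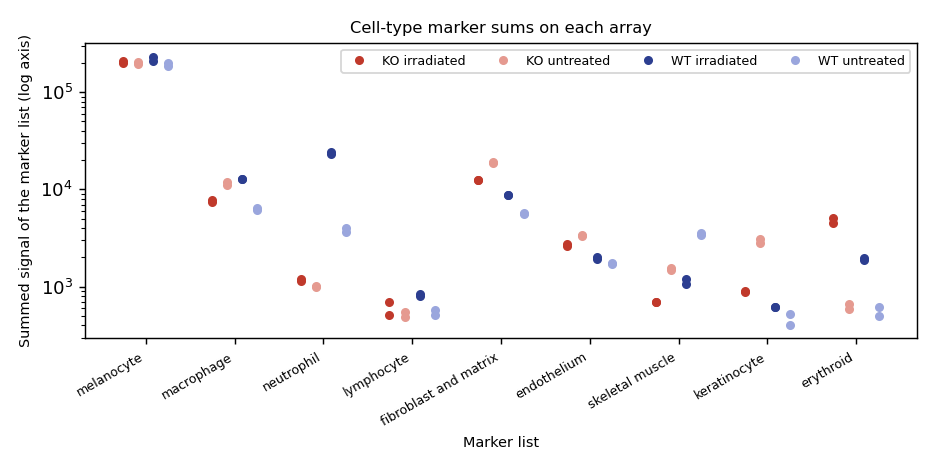
Summed MAS5 signal (log axis) of the marker list of each cell type, 1 point per array, with the KO irradiated, KO untreated, WT irradiated and WT untreated pools from left to right within a list. Melanocyte sums lie between 185890 and 231770 on all 8 arrays, whereas neutrophil sums range from 985.8 on a KO untreated array to 24072 on a WT irradiated array.

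The effect of 20 Gy on the replication genes was examined within each host first, since the WT and KO comparisons share no pool. In WT hosts 43 of the 49 genes were lower after irradiation than in the untreated pool, by a median of -0.29 on the log2 scale, against a median of -0.020 over all genes tested, of which 5979 of 11346 were below 0. In KO hosts 31 of the 49 were above 0, with a median of 0.085 against -0.020 over all genes. Single differences were small: in WT hosts 3 genes (Dbf4, Cdc6 and Ccne2) were over 1.5-fold lower and 1 (Orc1) over 1.5-fold higher, and in KO hosts 0 differed by 1.5-fold. Over all 11346 genes 320 were that much lower and 850 higher in WT hosts, and 544 lower and 481 higher in KO hosts. The neutrophil sum was 23652 in the WT irradiated pool, against 3816 in the WT untreated pool. The 18S, poly-A spike-in and hybridization control signals also moved with the WT comparison. The part of these sums and controls in it was not tested.

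Both irradiated arrays lay below both untreated arrays for 40 of the 49 genes in WT hosts, above them for 2 (Orc1 and Cdt1) and overlapped for 7. Over all genes tested those shares were 36.4% below and 31.3% above. In KO hosts 21 genes lay above, 12 below and 16 overlapped, against 30.9% above and 35.7% below over all genes. The pattern of being lower in WT hosts and higher in KO hosts was seen in 27 of the 49 (55.1%), against 18.3% of all genes. A further 16 were below 0 in both hosts (32.7% against 34.4%), 4 above 0 in both (Mcm7, Cdt1, Pold1 and Pcna, 8.16% against 29%) and 2 above 0 in WT hosts only (Orc1 and Orc5, 4.08% against 18.3%). The other bright probe sets of Mcm7, Cdt1, Pold1 and Orc1 were below 0 in WT hosts, while Pcna and Orc5 had none. The WT irradiated pool was the lowest of the 4 for 28 genes and the highest for 2 (26.2% and 17.8% of all genes). The highest pool was KO irradiated for 21 genes (32% of all genes), KO untreated for 7 (23.9%) and WT untreated for 19 (26.3%).

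**Figure D2:**
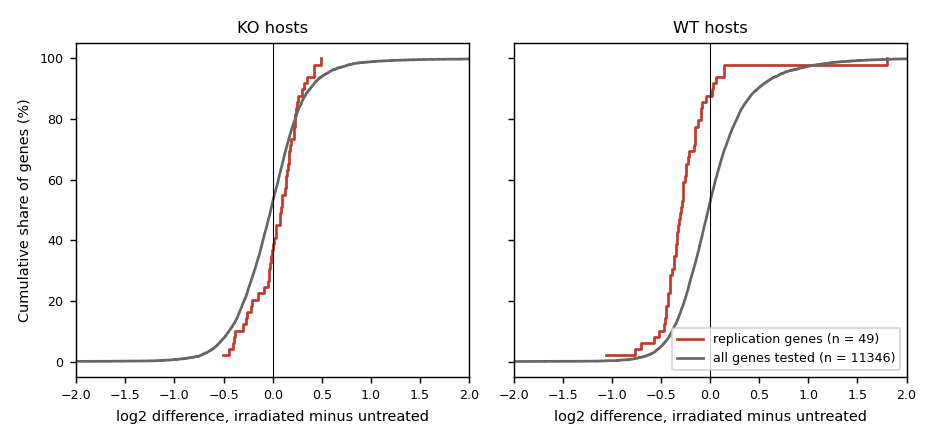
Cumulative share of genes (y axis, %) against the log2 difference between irradiated and untreated pools (x axis) in KO hosts (left) and WT hosts (right), for the 49 replication genes and all 11346 genes tested. The curve of the replication genes lies mostly left of the curve of all genes in WT hosts (medians -0.29 and -0.020) and mostly right of it in KO hosts (0.085 and -0.020).

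Calls were made in 2 ways. Over both hosts, an additive limma model took the 4 pool means. Its error is the difference between the hosts' radiation effects, and genes were called at a Benjamini-Hochberg adjusted p under 0.05. Within a host, limma was fitted on the 8 arrays, whose error is the spread between duplicate arrays of 1 pool, and a 2-fold difference was required as well. Over both hosts 0 of the 49 genes were called higher and 0 lower after irradiation, against 1.55% and 0.361% of all genes tested, and at an unadjusted p under 0.05 limma gave 1 higher and 4 lower (8.65% and 8.02% of all genes). In WT hosts 0 were called higher and 1 lower (2.25% and 0.203% of all genes), with 2 higher and 33 lower at an unadjusted p under 0.05 (18.6% and 21.3% of all genes). In KO hosts 0 were called higher and 0 lower (0.881% and 0.485%), with 11 higher and 8 lower at an unadjusted p under 0.05 (16.7% and 22.2%). The difference between the radiation effects, KO minus WT, was above 0 for 43 of the 49, with a median of 0.33 against -0.0091 over all genes. It was called for 1 gene higher and 0 lower (0.159% and 2.05%), with 24 higher and 3 lower at an unadjusted p under 0.05 (13.6% and 15.3%). Centring each array on its own median moved the median of all genes to -0.28 in WT hosts, -0.050 in KO hosts and 0.22 for the difference, and that of the replication genes to -0.55, 0.055 and 0.55.

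**Figure D3:**
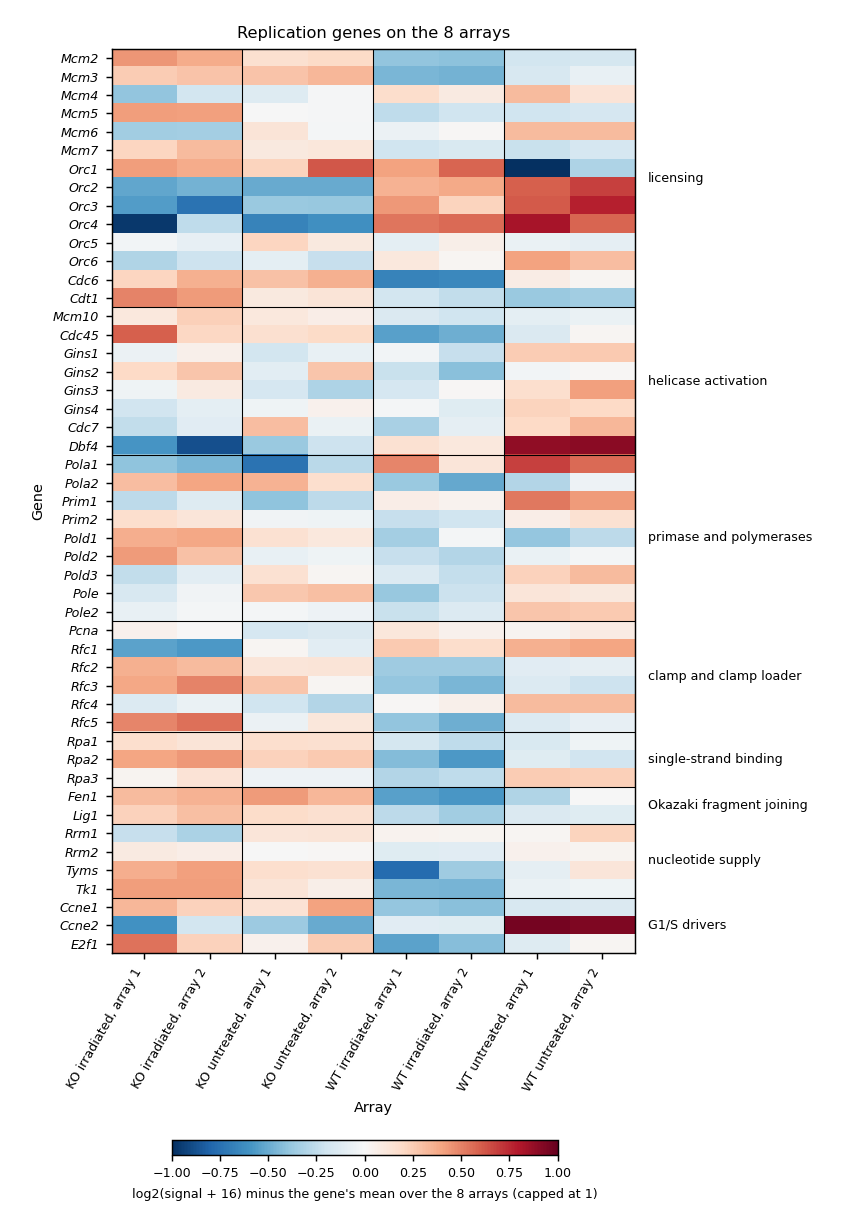
Heat map of the 49 genes (rows, by role) on the 8 arrays (columns, KO irradiated, KO untreated, WT irradiated, WT untreated, 2 arrays each); colour is log2(signal + 16) minus the gene's mean over the 8 arrays, capped at 1. Many rows are blue (low) on the WT irradiated arrays, while Orc2, Orc3, Orc4, Dbf4 and Pola1 are blue on all 4 KO arrays.

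Among the licensing genes, Cdc6, the loader of the helicase that is itself degraded and remade in each cycle, had the largest decrease in WT hosts. It read 1145 and 1261 in the KO irradiated pool and 1206 and 1260.1 in the KO untreated pool, against 614 and 623 in the WT irradiated pool and 1035 and 999 in the WT untreated pool. The WT irradiated arrays lay below all 6 others, which overlapped between the KO pools. The difference after irradiation was -0.70 ± 0.07, adjusted p = 0.00243 in WT hosts (1.63-fold lower, short of the 2-fold asked for) and -0.04 ± 0.07, adjusted p = 0.728 in KO hosts. The effects differed between hosts by 0.67 ± 0.10, adjusted p = 0.018.

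Cdt1, the other loading factor, which cells destroy once S phase begins, was above 0 in both hosts on its brightest probe set. Cdt1 read 16262 and 15478 on the KO irradiated arrays and 12322 and 12607 on the KO untreated ones, against 10151 and 9729 (WT irradiated) and 8898 and 9065 (WT untreated). Irradiated arrays were above untreated ones in both hosts, by 0.35 ± 0.06 in KO and 0.15 ± 0.06 in WT hosts. A second probe set of Cdt1 gave 0.46 in KO and -0.12 in WT hosts, so its sign in WT hosts depends on the probe set.

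The 6 subunits of the MCM helicase had both signs in KO hosts. Mcm2 read 11479 and 10945 in the KO irradiated pool and 9474 and 9668 in the KO untreated pool, against 6438 and 6362 in the WT irradiated pool and 7441 and 7488 in the WT untreated pool. Its irradiated arrays were above the untreated ones in KO hosts (0.23 ± 0.06, adjusted p = 0.0333) and below them in WT hosts (-0.22 ± 0.06, adjusted p = 0.0349). Mcm5 differed by 0.42 ± 0.05 in KO hosts and -0.04 ± 0.05 in WT hosts, and Mcm7 by 0.16 ± 0.06 and 0.02 ± 0.06. Mcm6 was below 0 in both hosts, with -0.40 ± 0.07 in KO and -0.34 ± 0.07 in WT. Mcm3 (-0.04 in KO, -0.35 in WT) and Mcm4 (-0.22 and -0.09) were below 0 in both hosts as well on their brightest probe sets. Other bright probe sets of Mcm3 gave -0.18, -0.01, 0.13 and -0.07 in KO hosts and -0.58, -0.47, -0.45 and 0.68 in WT hosts. Those of Mcm5 gave 0.46 and 0.27 in KO hosts and -0.17 and 0.46 in WT hosts. Of the 6 differences KO minus WT, those of Mcm2, Mcm3, Mcm5 and Mcm7 were above 0 and those of Mcm4 and Mcm6 below, none of them called. Other probe sets of Mcm4 (0.24) and Mcm6 (0.14) were above 0 for that difference. Those of Mcm3 gave 0.39, 0.46, 0.57 and -0.75 and those of Mcm5 0.63 and -0.19, with the dimmest below 0 in each. The split therefore depends on the probe set.

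The ORC subunits bind origins, and none of them was called after irradiation. Differences in WT hosts were -0.28 for Orc2, -0.37 for Orc3, -0.15 for Orc4, 0.06 for Orc5 and -0.29 for Orc6, and in KO hosts 0.01, -0.27, 0.03, -0.21 and -0.09 in the same order. Orc1, the subunit that is removed from origins in S phase, gave 1.80 ± 0.59 in WT hosts, from a dim probe set that read 199.9 and 228 on the WT irradiated arrays and 16.9 and 116 on the WT untreated ones. The 2 untreated arrays lay far apart, and a second probe set of Orc1 differed by -0.37, so the sign of Orc1 depends on the probe set.

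On their brightest probe sets all 8 helicase activation genes were below 0 in WT hosts, with a median of -0.38. In KO hosts 5 of the 8 were above 0 (median 0.11). Dbf4, which activates the kinase Cdc7 at origins, read 644 and 524 in the KO irradiated pool and 752 and 843 in the KO untreated pool, against 1084 and 1049 in the WT irradiated pool and 1819 and 1838 in the WT untreated pool. Irradiated arrays lay below untreated ones in both hosts, and all KO arrays below all WT arrays. The difference after irradiation was -0.44 ± 0.11, adjusted p = 0.0347 in KO hosts and -0.77 ± 0.11, adjusted p = 0.00702 in WT hosts, and -0.61 ± 0.17, adjusted p = 0.104 over both hosts. Its kinase Cdc7 differed by -0.30 ± 0.15 in KO and -0.47 ± 0.15 in WT hosts.

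Cdc45, which joins MCM and GINS in the active helicase, read 1514 and 1149.7 on the KO irradiated arrays and 1113 and 1141 on the KO untreated ones, against 679 and 704 (WT irradiated) and 899.5 and 1010.3 (WT untreated). The WT irradiated arrays were the lowest, and the 2 KO irradiated arrays differed from each other by more than the KO pools did. The difference was 0.22 ± 0.13 in KO hosts and -0.45 ± 0.13 in WT hosts. The GINS subunits, which form 1 complex, had similar differences in WT hosts, at -0.39 for Gins1, -0.31 for Gins2, -0.37 for Gins3 and -0.28 for Gins4. In KO hosts Gins1, Gins2 and Gins3 were above 0 (0.13, 0.16 and 0.26) and Gins4 below (-0.15). Mcm10, a scaffold of the early replisome, differed by 0.09 in KO and -0.09 in WT hosts. Dimmer second probe sets of Cdc45, Gins1 and Mcm10 gave 0.47, 0.59 and 0.49 in WT hosts, so these signs depend on the probe set. Those of Cdc7, Gins2 and Gins3 stayed below 0 there (-0.08, -0.18 and -0.33). In KO hosts the second probe sets of Cdc45 (-0.34) and Gins2 (-0.08) had the other sign, and those of Gins1, Gins3, Mcm10 and Cdc7 the same.

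Of the 9 genes of primase and the polymerases, 8 were below 0 in WT hosts (median -0.33) and 6 above 0 in KO hosts (median 0.095). Primase makes the RNA primers, and its subunits Prim1 and Prim2 differed by 0.14 and 0.18 in KO hosts and by -0.43 and -0.33 in WT hosts. A second probe set gave -0.02 in KO and -0.38 in WT hosts for Prim1, and 0.07 and 0.14 for Prim2. Pole, the catalytic subunit of the leading-strand polymerase epsilon, was below 0 in both hosts (-0.38 ± 0.08 in KO, -0.41 ± 0.08 in WT), while its partner Pole2 differed by -0.01 ± 0.06 and -0.45 ± 0.06. For the lagging-strand polymerase delta, Pold2 differed by 0.42 ± 0.07 in KO and -0.22 ± 0.07 in WT hosts. Pold3, another of its subunits, gave -0.26 ± 0.08 and -0.46 ± 0.08 on its brightest probe set. Other probe sets of Pold3 gave -0.22 and 0.40 in KO hosts, so its sign there depends on the probe set.

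The sliding clamp Pcna, a gene that p53 can also induce, differed little. It read 16739 and 16316 on the KO irradiated arrays and 14519 and 14763 on the KO untreated ones, against 17631 and 16794 (WT irradiated) and 16565 and 17222 (WT untreated). The WT irradiated and untreated arrays overlapped, and the difference was 0.17 ± 0.06 in KO and 0.03 ± 0.06 in WT hosts. The small clamp loader subunits Rfc2, Rfc3, Rfc4 and Rfc5 were all below 0 in WT hosts (-0.25, -0.25, -0.28 and -0.33). On these brightest probe sets all were above 0 in KO hosts (0.21, 0.30, 0.15 and 0.49). A second probe set of Rfc4 gave -0.12 in KO hosts, so its sign there depends on the probe set. Rfc5 read 4939 and 5148 in the KO irradiated pool and 3371 and 3788 in the KO untreated pool, against 2661 and 2499.5 in the WT irradiated pool and 3185 and 3320.1 in the WT untreated pool, so the irradiated pools were the highest and the lowest of the 4. Its difference between the effects was 0.83 ± 0.11, adjusted p = 0.0147, which fell short of 2-fold. The large subunit Rfc1 was below 0 in both hosts, with -0.51 ± 0.07 in KO and -0.16 ± 0.07 in WT hosts.

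The RPA genes, whose products coat single-stranded DNA, were below 0 in WT hosts at -0.12 (Rpa1), -0.35 (Rpa2) and -0.52 (Rpa3), and differed by -0.02, 0.17 and 0.14 in KO hosts. The effects on Rpa3 differed between hosts by 0.65 ± 0.09, adjusted p = 0.0136, short of 2-fold. The flap nuclease Fen1 and the ligase Lig1 differed by -0.41 and -0.17 in WT hosts and by -0.05 and 0.09 in KO hosts.

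Among the genes that supply nucleotides, the salvage enzyme thymidine kinase (Tk1) read 6061 and 6064 in the KO irradiated pool and 4964 and 4722 in the KO untreated pool, against 3297 and 3281 in the WT irradiated pool and 4328 and 4390.5 in the WT untreated pool. The KO irradiated arrays were above all others and the WT irradiated arrays below all others. The difference after irradiation was 0.32 ± 0.06, adjusted p = 0.012 in KO hosts and -0.40 ± 0.06, adjusted p = 0.00619 in WT hosts, and the effects differed by 0.73 ± 0.08, adjusted p = 0.00809. Thymidylate synthase (Tyms) differed by 0.22 ± 0.15 and -0.58 ± 0.15, from a dim probe set that read 47.4 and 68.8 on the WT irradiated arrays. The subunits of ribonucleotide reductase, which makes deoxynucleotides, differed by -0.40 (Rrm1) and 0.07 (Rrm2) in KO hosts and by -0.09 and -0.15 in WT hosts. A second bright probe set of Rrm1 gave 0.02 in KO and -0.43 in WT hosts. Other probe sets of Rrm2 gave -0.01 and -0.21 in KO hosts and -0.29 and 0.20 in WT hosts.

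Of the cyclin E genes, whose products drive entry into S phase, Ccne2 gave the only calls of the 49 genes that involved radiation. Ccne2 read 125 and 173 in the KO irradiated pool and 152 and 136 in the KO untreated pool, against 182 and 182 in the WT irradiated pool and 401 and 396 in the WT untreated pool. The untreated WT arrays stood apart from the 6 others, and within KO hosts the irradiated and untreated arrays overlapped. Ccne2 fell in WT hosts (-1.06 ± 0.14, adjusted p = 0.00537, 2.09-fold lower) and differed by 0.04 ± 0.14, adjusted p = 0.873 in KO hosts. The radiation effects of the hosts differed by 1.10 ± 0.20, adjusted p = 0.0286. The call of that difference ended without either KO untreated array (1.17 and 1.03), without KO irradiated replicate 2 (0.89), and without either WT untreated array (1.09 and 1.11) or WT irradiated array (1.10 and 1.10), and the adjusted p ranged from 0.0136 to 0.0909 over 17 alternatives. Ccne1 differed by 0.01 ± 0.09 in KO and -0.25 ± 0.09 in WT hosts, and its second probe set gave 0.17 and -0.55. E2f1, the transcription factor that activates many of these genes, differed by 0.24 ± 0.13 in KO and -0.43 ± 0.13 in WT hosts. A second bright probe set of E2f1 gave 0.24 and -0.09. The size of both genes' differences thus depends on the probe set.

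**Figure D4:**
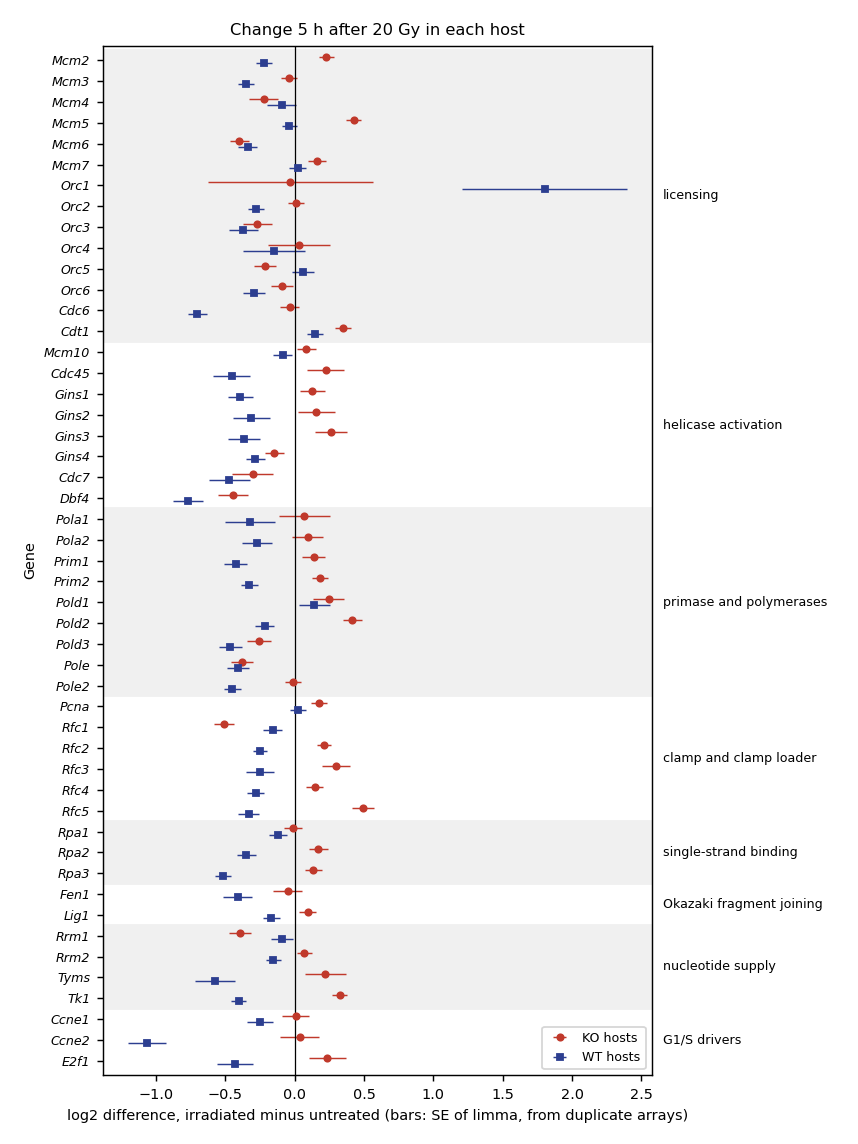
Log2 difference between irradiated and untreated pools (x axis) of each gene (rows, by role) in KO hosts (circles) and WT hosts (squares), with the SE of limma from duplicate arrays. Squares lie left of 0 for 43 genes and circles right of 0 for 31, and the squares of Ccne2 (-1.06) and Orc1 (1.80) lie farthest out.

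Promoters were read to see whether the genes shared E2F sites. RefSeq promoters of build GRCm38.p6, from 250 bases before to 50 after a transcript start, were on hand for 41 of the 49 genes and for 27025 genes in all. The site was searched as TTTCCCGC, TTTGGCGC, TTTCGCGC or TTTGCCGC on both strands, and matches could overlap. It was present in 15 of the 41 replication genes (36.6%) and in 2.6% of all genes. It was held by 5 of the 11 genes called higher in KO hosts in the host comparison that follows, by 2 of 6 called lower and by 8 of 24 not called. The median difference after irradiation in WT hosts was -0.32 for the 15 genes with a match and -0.28 for the 26 without. Between hosts over both treatments, KO minus WT, the medians were 0.41 and 0.18, and neither pair was tested. Shown here are the 250 bases upstream of the start of Cdc6 (chr11:98907901-98908150, plus strand), which was higher in KO hosts, of Mcm6 (chr1:128359706-128359955, minus strand), which was not called, and of Orc3 (chr4:34614943-34615192, minus strand) and Pola1 (chrX:93632156-93632405, minus strand), which were lower, each 5′ to 3′ on the gene's own strand with the matches in capitals.
Cdc6: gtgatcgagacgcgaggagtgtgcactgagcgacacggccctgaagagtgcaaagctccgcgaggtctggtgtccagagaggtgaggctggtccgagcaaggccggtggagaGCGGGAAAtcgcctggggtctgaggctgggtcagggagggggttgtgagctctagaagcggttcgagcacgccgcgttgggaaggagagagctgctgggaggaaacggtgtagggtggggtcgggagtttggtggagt
Mcm6: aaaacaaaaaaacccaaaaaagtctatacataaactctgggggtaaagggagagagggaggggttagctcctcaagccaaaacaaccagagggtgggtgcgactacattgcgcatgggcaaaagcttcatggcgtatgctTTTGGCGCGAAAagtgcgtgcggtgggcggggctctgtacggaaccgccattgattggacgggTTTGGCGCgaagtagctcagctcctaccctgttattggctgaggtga
Orc3: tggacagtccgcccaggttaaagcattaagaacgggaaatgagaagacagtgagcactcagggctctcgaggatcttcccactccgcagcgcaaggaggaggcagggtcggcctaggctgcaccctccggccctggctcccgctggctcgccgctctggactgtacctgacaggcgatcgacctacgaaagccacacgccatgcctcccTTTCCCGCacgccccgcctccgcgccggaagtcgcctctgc
Pola1: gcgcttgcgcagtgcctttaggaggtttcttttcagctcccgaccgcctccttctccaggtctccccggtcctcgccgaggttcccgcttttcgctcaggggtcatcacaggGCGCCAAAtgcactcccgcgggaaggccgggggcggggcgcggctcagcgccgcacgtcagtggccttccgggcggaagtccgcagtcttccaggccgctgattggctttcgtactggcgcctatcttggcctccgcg
In these stretches Mcm6 held 3 matches, of which 2 overlap, and the others 1 each. The genes shown were picked by hand and all held a match, so they cannot show how matches divide between the directions. A match is a description of the letters in these windows only. The CCAAT box, which many cell-cycle promoters carry (searched as CCAAT on both strands), was in 23 of the 41 (56.1%) and in 41.1% of all genes. The cell-cycle homology region of genes that peak in mitosis (TTTGAA or TTCGAA on both strands) was in 9 (22%) and in 21.7% of all genes.

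The hosts were compared next. Over both treatments the replication genes divided: 11 of the 49 passed as higher and 7 as lower in tumours of KO hosts, against 12.1% and 18.9% of all genes tested. The share called higher is thus above that of all genes and the share called lower below it. Those higher were Mcm2, Mcm3, Cdc6, Cdt1, Cdc45, Pola2, Pold1, Rfc3, Rpa2, Fen1 and Ccne1, by 0.50 to 0.71 on the log2 scale. Those lower were Orc2, Orc3, Orc4, Dbf4, Pola1, Rfc1 and Ccne2, by -1.25 to -0.60. The median of the 49 was 0.19, against 0.085 over all genes. The spike-in controls differed between the hosts' arrays in the same comparison, and so did the sums of fibroblast, endothelial, keratinocyte and neutrophil markers, whose part was not tested.

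The calls differed in how far they depended on the settings. Orc2, Orc3, Orc4 and Dbf4 passed in 17 of 18 alternatives, all but the one without a filter on dim genes, and Pola1 in 16 of 17, whereas the lower calls of Rfc1 and Ccne2 passed in 11 of 18 and 9 of 17. Of the higher genes Fen1 passed in 16 of 18, whereas Mcm2, Pold1 and Rfc3 passed in 7 of 18 and Cdc6 and Cdc45 in 6 of 18. With 1 array left out, the count of higher genes was 5 or 2 without KO irradiated replicate 1 or 2 and 5 or 6 without KO untreated replicate 1 or 2. It was 1 or 8 without WT irradiated replicate 1 or 2 and 0 or 2 without WT untreated replicate 1 or 2, while 5 to 7 genes were called lower. Scaling moved the balance as well, to 4 higher and 5 lower after quantile normalization and to 2 higher and 8 lower with each array centred on its median. The median of all genes moved too, from 0.085 to 0.112 after quantile normalization and to 0.00755 with median centring. The share of all genes called was not taken under these settings or with an array left out. These counts therefore do not set the replication genes apart from all genes.

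The ORC subunits Orc2, Orc3 and Orc4, which are part of the origin-binding complex, were lower in KO hosts together. Orc2 read 354 and 364 in the KO irradiated pool and 356 and 357 in the KO untreated pool, against 655 and 673 in the WT irradiated pool and 784 and 831 in the WT untreated pool, a difference of -1.001 ± 0.17, adjusted p = 0.00161 (2-fold lower). Orc3 read 291 and 254 on the KO irradiated arrays and 331 and 330.1 on the KO untreated ones, against 591 and 511 (WT irradiated) and 673 and 757 (WT untreated) (-1.02 ± 0.16, adjusted p = 0.00125). Orc4 read 218 and 366 in the KO irradiated pool and 270.2 and 282 in the KO untreated pool, against 644 and 659 in the WT irradiated pool and 790.4 and 664 in the WT untreated pool (-1.25 ± 0.16, adjusted p = 0.000498). For all 3 genes every KO array was below every WT array. The other subunits did not pass, with 0.82 ± 0.32 for Orc1, 0.10 ± 0.17 for Orc5 and -0.42 ± 0.16 for Orc6.

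The helicase subunits Mcm2 and Mcm3 and both loaders were called in the other direction. Mcm2, whose array values are given above, was higher in KO hosts by 0.58 ± 0.17, adjusted p = 0.029. Mcm3 read 6070.3 and 6206 in the KO irradiated pool and 6208 and 6412 in the KO untreated pool, against 3707 and 3652 in the WT irradiated pool and 4562 and 4835 in the WT untreated pool (0.58 ± 0.17, adjusted p = 0.0246). On every KO array Mcm2 and Mcm3 were above every WT array. Cdc6 was higher by 0.61 ± 0.19, adjusted p = 0.0344 and Cdt1 by 0.57 ± 0.16, adjusted p = 0.0235. The Cdc6 value joins 0.27 untreated and 0.94 irradiated, and that of Cdt1 0.47 and 0.67. Mcm5 (0.41 ± 0.18) and Mcm7 (0.37 ± 0.16) did not pass, and neither did Mcm4 (-0.36 ± 0.16) and Mcm6 (-0.29 ± 0.16), whose values were below 0. Members of the same hexamer thus lay on both sides of 0.

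Dbf4 was lower in KO hosts, with a difference of -1.02 ± 0.17, adjusted p = 0.00155, while its kinase Cdc7 differed by -0.06 ± 0.16. Cdc45 was higher by 0.58 ± 0.19, adjusted p = 0.0425, a value that joins 0.24 untreated and 0.92 irradiated. None of the 4 GINS genes passed, with values from -0.21 (Gins3) to 0.33 (Gins2). Mcm10 differed by 0.26 ± 0.16.

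The subunits of polymerase alpha, which extends the primers, were called in opposite directions. Pola1, its catalytic subunit, read 239 and 229 in the KO irradiated pool and 186 and 264 in the KO untreated pool, against 455 and 351 in the WT irradiated pool and 524 and 483 in the WT untreated pool (-0.93 ± 0.17, adjusted p = 0.00284). Pola2, its accessory subunit, read 934 and 989 on the KO irradiated arrays and 958 and 843 on the KO untreated ones, against 575 and 522 (WT irradiated) and 610.1 and 724 (WT untreated) (0.61 ± 0.17, adjusted p = 0.0213). In both genes the KO and WT arrays did not overlap. The primase subunits bound to them did not pass, with -0.52 ± 0.18 for Prim1 and 0.10 ± 0.18 for Prim2. Pold1, the catalytic subunit of polymerase delta, read 2655 and 2690.4 in the KO irradiated pool and 2293 and 2213 in the KO untreated pool, against 1618 and 2030.1 in the WT irradiated pool and 1571 and 1716 in the WT untreated pool (0.50 ± 0.16, adjusted p = 0.037). Pold2 (0.30), Pold3 (-0.09), Pole (0.19) and Pole2 (-0.09) did not pass.

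The clamp loader held calls in both directions as well. Its large subunit Rfc1 read 468 and 455 in the KO irradiated pool and 696 and 634 in the KO untreated pool, against 823 and 776 in the WT irradiated pool and 882 and 906 in the WT untreated pool, which was lower in KO hosts, with a difference of -0.60 ± 0.17, adjusted p = 0.0233. Rfc3, a small subunit, read 1983 and 2138 on the KO irradiated arrays and 1835 and 1527 on the KO untreated ones, against 1152 and 1095 (WT irradiated) and 1376 and 1305 (WT untreated), and was higher by 0.59 ± 0.18, adjusted p = 0.0314. The KO arrays of Rfc3 were all above the WT arrays, and those of Rfc1 all below them. Rfc2 (0.46 ± 0.18), Rfc5 (0.55 ± 0.20), Rfc4 (-0.35 ± 0.17) and the clamp Pcna itself (-0.13 ± 0.16) did not pass.

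Rpa2, the RPA subunit that checkpoint kinases phosphorylate, read 2161 and 2228 in the KO irradiated pool and 1929 and 1971 in the KO untreated pool, against 1212 and 1101 in the WT irradiated pool and 1514 and 1438 in the WT untreated pool (0.66 ± 0.18, adjusted p = 0.0194). Fen1 read 4485 and 4574 on the KO irradiated arrays and 4840.5 and 4535 on the KO untreated ones, against 2462 and 2399.6 (WT irradiated) and 2915 and 3590.2 (WT untreated), the largest of the higher differences (0.71 ± 0.17, adjusted p = 0.0104). For both genes every KO array was above every WT array. Rpa1 (0.31 ± 0.16), Rpa3 (0.03 ± 0.19) and Lig1 (0.44 ± 0.17) did not pass. Of the genes that supply nucleotides none passed, with 0.55 ± 0.20 for Tyms, 0.52 ± 0.20 for Tk1, 0.08 ± 0.16 for Rrm2 and -0.15 ± 0.17 for Rrm1.

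The cyclin E genes were called in opposite directions. Ccne1 read 1540.3 and 1437 in the KO irradiated pool and 1354 and 1620.5 in the KO untreated pool, against 934 and 910.2 in the WT irradiated pool and 1093 and 1103 in the WT untreated pool, and was higher in KO hosts by 0.55 ± 0.17, adjusted p = 0.0282. Ccne2 was lower, with a difference of -0.83 ± 0.23, adjusted p = 0.022, a value that joins -1.38 ± 0.14 untreated and -0.28 ± 0.14 irradiated. E2f1 differed by 0.54 ± 0.19, adjusted p = 0.055, short of the threshold.

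**Figure D5:**
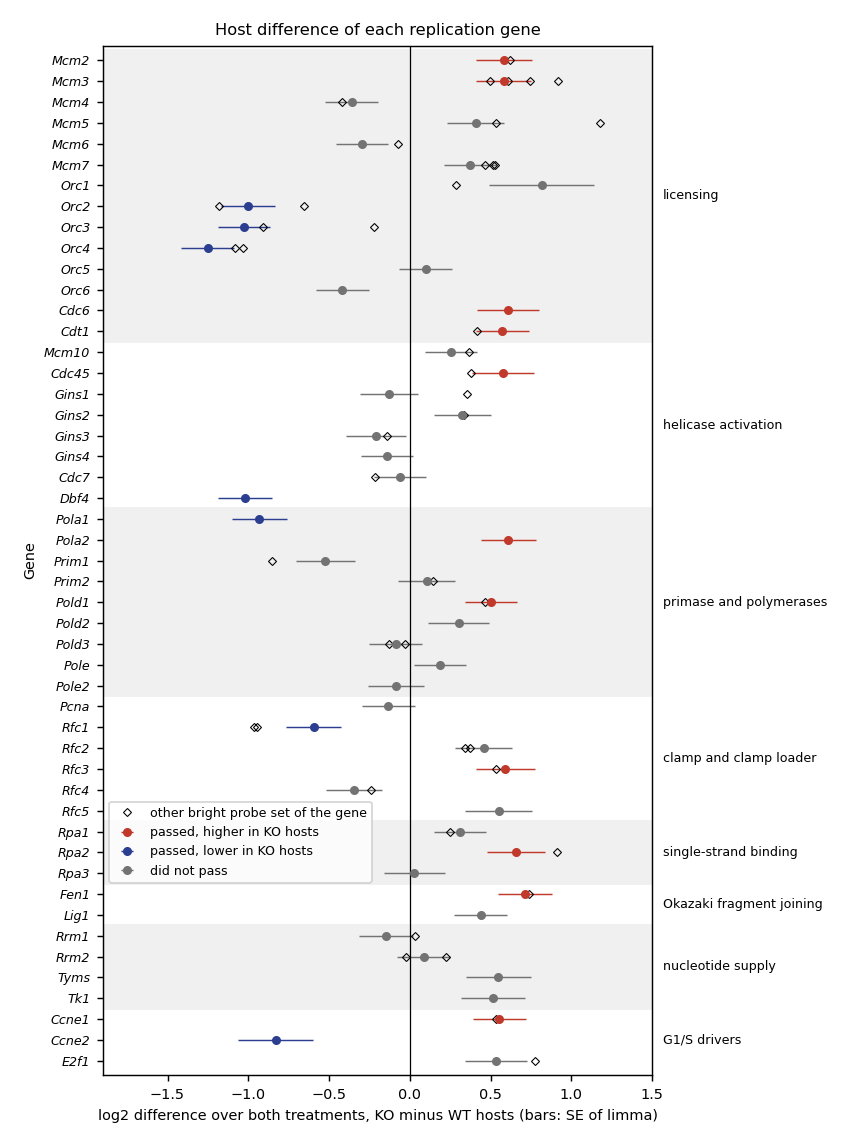
Log2 difference between KO and WT hosts over both treatments (x axis) of each gene (rows, by role), with the SE of limma on the 4 pool means; red points passed as higher in KO hosts, blue as lower, grey did not pass, and open diamonds are the gene's other probe sets above the tested level. Points on both sides of 0 stand within ORC, MCM, polymerase alpha, RFC and cyclin E.

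Other probe sets of the same genes bore on these directions. The 49 genes had 109 probe sets, and 45 further ones in 32 genes were above the tested level. In the host comparison 42 of the 45 had the sign of the brightest probe set, and so did all 20 that belonged to genes that passed. After irradiation 38 of the 45 were below 0 in WT hosts, and 35 of the 45 were above 0 for the difference between the hosts. The sign matched gene by gene for 32 of 45 in either host. The probe sets used for Mcm3, Mcm4, Mcm5, Mcm7, Gins2, Pold1, Fen1, Rrm2 and Ccne1 belong to the array's classes that may also read related sequences.

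Untreated and irradiated tumours were also compared between hosts one at a time. Among untreated pools 0 of the 49 genes were called higher and 6 lower in KO hosts (2.06% and 6.25% of all genes tested), with 19 higher and 19 lower at an unadjusted p under 0.05 in limma (30.7% and 26.1%). The 6 were Orc2 (-1.14 ± 0.06), Orc3 (-1.07 ± 0.11), Orc4 (-1.34 ± 0.22), Dbf4 (-1.18 ± 0.11), Pola1 (-1.13 ± 0.18) and Ccne2. Among irradiated pools 0 were called higher and 1, Orc4 (-1.16 ± 0.22), lower (0.793% and 7.43%), with 27 higher and 11 lower at an unadjusted p under 0.05 (32.0% and 29.3%). The median of the 49 was 0.34 irradiated and 0.091 untreated, against 0.062 and 0.078 over all genes. With each array centred on its median the untreated median turned to -0.10, and that of all genes to -0.11. Genes that lay on the same side of 0 in both comparisons numbered 23 higher and 14 lower in KO hosts, or 46.9% and 28.6%, close to the 45% and 33.4% of all genes. For 9 genes (Gins1, Gins3, Cdc7, Prim2, Pold2, Pold3, Pole2, Rpa3 and Rrm2) the KO pool was below WT untreated and above WT irradiated, or 18.4% against 9.62% of all genes.

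Other genes of the pathway were read as lists. Of 27 tested genes that also work at the fork or on new chromatin, 5 were higher and 7 lower in KO hosts (12.1% and 18.9% of all genes tested). The 4 with the largest differences were topoisomerase I (Top1, -1.41 ± 0.16, adjusted p = 0.000302), the checkpoint adaptor Topbp1 (-1.01 ± 0.17, adjusted p = 0.00171), the chromatin remodeller Hells (-0.97 ± 0.16, adjusted p = 0.00158) and Uhrf1, which brings DNA methylation to new strands (0.93 ± 0.18, adjusted p = 0.00351). After irradiation 0 were called in limma over both hosts, 25 of the 27 were below 0 in WT hosts (median -0.34) and 19 in KO hosts (median -0.088). The partners Timeless and Tipin, which hold the fork together, were called in opposite directions between hosts (0.76 ± 0.17 and -0.78 ± 0.17).

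Among 15 further genes of nucleotide supply, 4 were higher and 2 lower in KO hosts, against 12.1% and 18.9% of all genes. The pyrimidine enzyme Cad (0.74 ± 0.17, adjusted p = 0.00773), the deaminase Dctd (0.69 ± 0.17) and the serine hydroxymethyltransferases Shmt1 (0.59 ± 0.20) and Shmt2 (0.55 ± 0.17) were higher. Rrm2b, the p53-induced subunit of ribonucleotide reductase, averaged 312 in the KO irradiated and 267 in the KO untreated pool, against 444 in the WT irradiated and 434 in the WT untreated pool (-0.58 ± 0.16, adjusted p = 0.0224). After irradiation it differed by 0.12 ± 0.16 over both hosts.

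Of 28 genes that control the G1/S step (against 12.1% higher and 18.9% lower over all genes), 1 was higher (cyclin D1, Ccnd1, 0.59 ± 0.16) and 7 lower in KO hosts, among them the retinoblastoma gene Rb1 (-0.81 ± 0.16), cyclin A2 (Ccna2, -0.69 ± 0.16) and Rbl1 (-0.59 ± 0.16). The only one called after irradiation over both hosts was Cdkn1a, the inhibitor p21, which rose by 1.87 ± 0.16, adjusted p = 0.000316, with 1.79 ± 0.06 in KO and 1.94 ± 0.06 in WT hosts. All 10 tested p53 targets rose after irradiation over both hosts (1.55% of all genes did), with medians of 1.75 in KO and 1.44 in WT hosts. Of 19 mitosis genes 8 were lower and 0 higher in KO hosts (18.9% and 12.1% of all genes). After irradiation 6 fell and 0 rose over both hosts (0.361% and 1.55% of all genes), the largest being Hmmr (-1.03 ± 0.18, adjusted p = 0.0165), Cenpf (-1.004 ± 0.17), Kif20a (-0.92 ± 0.16) and Nek2 (-0.82 ± 0.16), with list medians of -0.57 in KO and -0.56 in WT hosts. The median of the replication genes was 0.085 in KO and -0.29 in WT hosts. Mki67, the proliferation marker, differed by -1.47 ± 0.08 in KO and -0.33 ± 0.08 in WT hosts. Its effect was lower in KO hosts by -1.14 ± 0.12, adjusted p = 0.00692 in limma, opposite in sign to that of Ccne2. Over the 19 mitosis genes this difference between hosts was above 0 for 11 and below 0 for 8, with a median of 0.038.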

How the data were processed

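RNA pooled from whole tumours of each of 4 groups was read on 2 Affymetrix Mouse 430 2.0 arrays a pool. The deposited signal intensities are linear MAS5 values, per the submitters' processing notes, and their trimmed mean (2% off each end) was 500.00 on all 8 arrays. Depth has no meaning for arrays, and their number limits the precision. Of 45101 probe sets, 64 were controls, 34958 named 1 gene, 932 several and 9160 none here. Gene symbols came from the platform annotation, 34754 of them found by gene ID. Each gene was read on its brightest probe set that named it alone, as log2(signal + 16), and tested where the mean over the 8 arrays reached the median probe set (signal 68.8). The limma fits (limma 3.58.1, R 4.3.3) were of 2 kinds: an additive host and radiation fit on the 4 pool means (1 residual degree of freedom, prior 9.54, adjusted p under 0.05), and a fit of 4 group means on the 8 arrays (4 residual, prior 1.99, adjusted p under 0.05 and 2-fold). Adjustment was by Benjamini-Hochberg over the 11346 genes tested. Duplicate arrays are technical, so array-level p-values measure that spread only, and no test measures the spread between mice. The code was tested on simulated data. Members called in any comparison, and at least 1 for each role, were given by array. Pathway genes were named up to 4 a list by size of difference, with Cdkn1a and Rrm2b added, and Timeless with Tipin, Mki67 and Rfc5's and Pcna's array values were chosen after their values were seen. The members and lists were chosen with earlier results of these data known. Promoters are RefSeq, GRCm38.p6. Alternatives were other normalizations, pseudocounts, filters, probe sets, variance models and fold thresholds, each array left out in turn, and a block for the replicate number.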

Additional observations from a re-analysis of the deposited data

Results flagged for a closer look

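Ccne2 stood out because its response to radiation differed between the hosts by the test of that difference itself. The effect in KO hosts minus that in WT hosts was 1.10 ± 0.20 on the log2 scale (limma on 8 arrays, adjusted p = 0.0286), from 0.04 in KO hosts and -1.06 in WT hosts. The call was kept in 7 of 17 alternatives and lost in 10. Its only probe set averaged 149 (KO irradiated), 144 (KO untreated), 182 (WT irradiated) and 399 (WT untreated). The test covers the spread between duplicate arrays of 1 pool a group, and the WT pools also differed in their neutrophil markers and spike-ins, whose part was not tested.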

How the results depend on the processing

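No called gene changed sign in any alternative run. Over both treatments the count higher in KO hosts, 11, became 22 with the 8 arrays taken as replicates, 22 with the replicate block, 20 with limma-trend, 18 with a pseudocount of 64, 17 with the 75th percentile as filter, 6 with no pseudocount, 4 after quantile normalization, 2 with median centring and 0 with no filter, and ranged from 0 to 8 with 1 array left out. The count lower, 7, became 12 with the 8 arrays, 12 with the block and 0 with no filter, and was 5 to 7 with 1 array left out. Among irradiated pools 0 higher became 17 at 1.5-fold, 2 after quantile normalization, and 1 with no pseudocount or the mean of probe sets (0 to 2 with 1 array left out), and 1 lower became 6 at 1.5-fold and 2 with no pseudocount (1 to 2). Among untreated pools 0 higher became 1 with limma-trend, a pseudocount of 64 or the block (0 to 1), and 6 lower became 3 with the mean of probe sets (5 to 6). Radiation over both hosts gave 1 higher with the 8 arrays and with limma-trend in place of 0, and in place of 0 lower 8 with the 8 arrays, 5 with the block, and 1 with the 75th percentile, limma-trend or a pseudocount of 64. In WT hosts 0 higher became 1 with limma-trend or a pseudocount of 64 (0 to 1), and 1 lower became 3 at 1.5-fold, 2 with median centring and 0 with the 75th percentile or a pseudocount of 64. The 1 gene with a higher effect in KO than WT hosts became 6 at 1.5-fold, 3 with median centring, 2 after quantile normalization and 0 with the 75th percentile, no filter, a pseudocount of 64 or the block (0 to 1; lower 0 to 1). Fewer or more genes tested change the adjustment in the filter settings, and the cause of the other shifts was not tested. These counts stand without the share of all genes called under the same setting. The median of the replication genes kept its sign in all 15 alternatives run in 6 of the 7 comparisons. Among these it ranged from -0.55 to -0.22 after irradiation in WT hosts and from 0.049 to 0.13 in KO hosts. For untreated pools it kept its sign in 13 of 15 (-0.10 to 0.14). The -0.10 came with median centring, where the median of all genes was -0.11. Arrays with the same number did not deviate together, with correlations of -0.0318 to 0.052 over 6 pairs of pools, so the numbers do not pair the samples.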
